A study of Danio rerio with 14 samples.

Results

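Transcript levels in the eyes of control zebrafish larvae were compared between 8 and 5 days post fertilization (dpf), a stretch of days in which the larval eye keeps growing after vision has begun. The comparison was made on 6 of the 12 RNA samples of the series, namely the 3 control samples of 8 dpf and the 3 control samples of 5 dpf, which were grouped by their labels. Of the 14 two-colour arrays, 13 held at least 1 of these samples and 4 paired a sample of 8 dpf with a sample of 5 dpf. Only 1 array, called array U in the labels, paired the control groups of both ages directly, and the other 3 of the 4 joined the ages through samples of the TBBPA groups.

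The study exposed larvae of the wild-type AB strain to 200 µg/L of the flame retardant tetrabromobisphenol A (TBBPA) until 5 dpf and asked what this did to eye transcripts and what was left after recovery. The TBBPA groups of 8 and 5 dpf, again with 3 samples each, enter here because they link the arrays. Control larvae of 8 dpf had been moved at 5 dpf into new plates with clean water, where they stayed for 3 days. Control larvae of 5 dpf were sampled straight from the control medium, which according to the methods contained the solvent dimethyl sulfoxide. Each sample held the pooled eyes of 10 larvae from 1 plate, dissected with a syringe on ice during the morning hours. Age and the move from solvent medium to clean water cannot be told apart in this design, and feeding of the larvae is not given in the sources used here. In pooled tissue, fewer cells of a type and less RNA per cell cannot be told apart either.

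The zebrafish eye grows throughout life from a ring of dividing progenitors at the rim of the retina, the ciliary marginal zone, while the lens adds fibre cells that are filled with crystallins. Cones begin to work first and rods follow later, and both turn light into a voltage change through an opsin, a G protein (transducin) and a phosphodiesterase that breaks down cyclic GMP. The retina also keeps its own circadian clock, in which transcription factors of the activating arm switch on their own repressors.

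All values are log2 ratios, so that a change of 1 means a doubling, and each is given as control 8 dpf minus control 5 dpf ± standard error (SE) from a linear model of all arrays fitted with limma. Levels of single samples are relative to the mean of the 12 samples of the same gene and cannot be compared between genes. The standard errors and adjusted p treat the 14 arrays, and not the plates, as independent, because the estimated share of variance common to an RNA sample was 0. It was 0.3 for probes when a dye effect was added to the model. With n = 3 per group, an exact permutation test on the samples alone cannot go below p = 0.1, so it was not used for calls. Sample levels of both ages are tied together only through the 4 arrays linking the ages, and groups that do not overlap are therefore no independent check of a change.

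The samples did not carry equal weight. Control 5 dpf replicate 1 was on 4 arrays, including array U and one more of the 4 linking arrays, whereas each other control sample was on 2. Among the control samples of 8 dpf, replicate 3 stood farthest from the other samples of its group, at a root mean square distance of 0.345 log2 units over all genes, against 0.228 for replicate 1 and 0.194 for replicate 2, while the samples of 5 dpf lay at 0.169 to 0.193. Replicate 3 of 8 dpf had the highest mean of its group in 27 of the 39 gene lists described here and the lowest in 8, and in 16 of the 18 lists with a median change under -0.2 it was the sample of 8 dpf nearest to the 5 dpf mean. Transcripts of exocrine pancreas and liver were also detected in these eye samples, and control 5 dpf replicate 1 had the highest level of both, with list means of 1.77 and 0.80. Results are therefore given with and without the samples that moved them.

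Lower transcripts outnumbered higher ones in the older eyes. Of 17950 probes, 1221 were called, with an adjusted p under 0.05 and an absolute log2 change over 0.75, which is 6.8% of the probes tested. Of these, 398 (2.22% of all probes) were higher and 823 (4.58%) were lower at 8 than at 5 dpf. With the adjusted p alone, 5792 probes passed, and 91 of the called probes had changed more than 4-fold. On array U, the only direct pairing, 1220 of the 1221 called probes had the same sign and 1086 were also past 0.75. Array U was itself part of the fit that made the calls, so this is no independent check. The 3 levels of 8 dpf lay wholly above or below the 3 levels of 5 dpf for 1135 of the 1221 called probes. Among all 17950 probes this held for 6402 (35.7%). The levels come from the same arrays as the calls, so this is no independent check either.

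Probes of 1 gene were averaged per array for the counts by gene, and "rose" and "fell" refer below to an adjusted p under 0.05 over all 8948 named genes. By this measure 3312 genes (37%) changed, of which 1276 (14.3%) rose and 2036 (22.8%) fell, and the median change of all genes was -0.01. The levels of both ages did not overlap for 37.7% of the genes. Leaving out a sample also dropped every array it was on. This left 10 arrays without control 5 dpf replicate 1 or TBBPA 5 dpf replicate 1, and 12 without any other sample. Control 5 dpf replicate 1 was on 2 linking arrays, control 8 dpf replicates 1 and 2 on 1 each, and the other control samples on 0. How much of a lower count came from fewer arrays was not tested. The count of genes that changed depended on the sample left out. It was 1019 genes without control 5 dpf replicate 1, 1513 without control 8 dpf replicate 2, 1931 without control 8 dpf replicate 1 and 1647 without TBBPA 5 dpf replicate 1, and it lay between 2642 and 3816 when any other sample was left out. A total of 827 genes (9.24%) passed in the same direction without each of the 12 samples in turn, of which 212 (2.37%) rose and 615 (6.87%) fell. When the arrays were scaled to a common spread, 185 genes rose and 518 fell. The arrays linking the ages had an SD of 0.455 to 0.601, against 0.226 to 0.338 for arrays of a single age. Scaling therefore shrinks the age change itself, and its lower counts are no check of the calls.

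**Figure D1:**
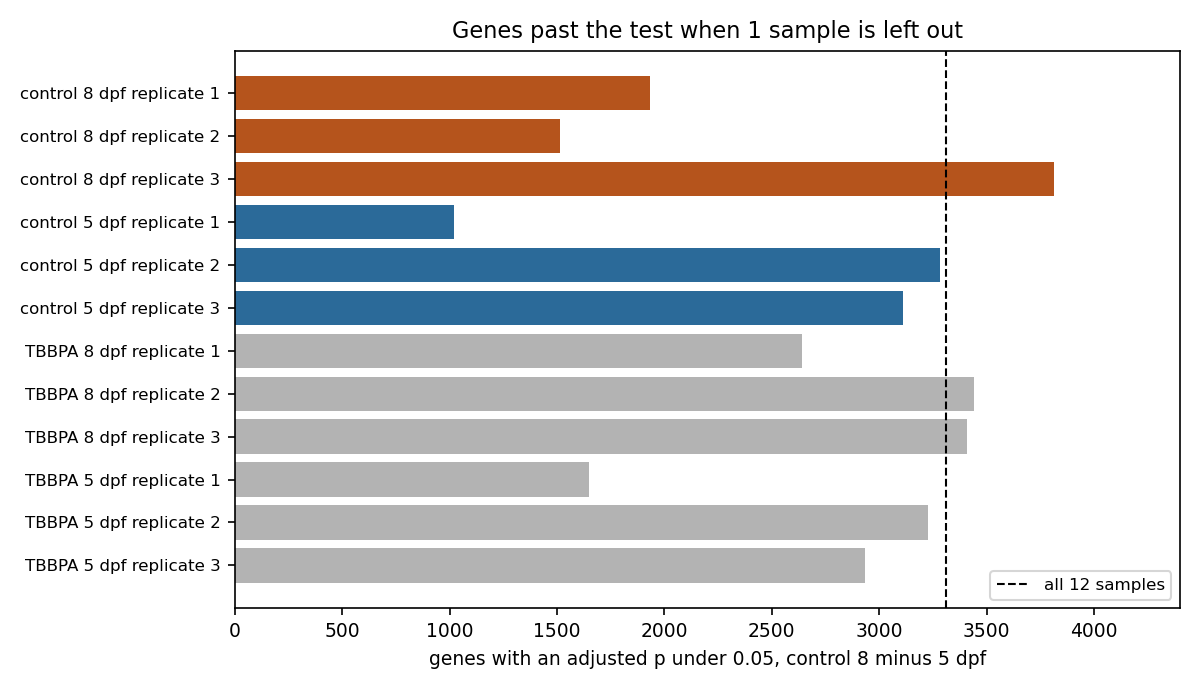
Number of genes with an adjusted p under 0.05 between control eyes of 8 and 5 dpf (x axis). Each bar leaves out the named sample and every array it is on (y axis). Orange bars stand for control samples of 8 dpf, blue bars for control samples of 5 dpf, grey bars for TBBPA samples, and the dashed line marks the 3312 genes found with all 12 samples. The shortest bar, 1019 genes, belongs to control 5 dpf replicate 1.

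Lists of genes with a known role were described by their counts and medians. The most negative medians were those of pancreatic enzymes, the matrix of cornea, sclera and cartilage, collagens, cell division and the respiratory chain. The largest shares of genes that fell were those of pancreatic enzymes, cell division, the respiratory chain, neurogenesis and collagens. Lens crystallins and the circadian clock had the highest medians. Control 5 dpf replicate 1 was the sample whose removal left the fewest calls, alone or tied, in 35 of the 39 lists. The counts of a list stand beside the 14.3% of all genes that rose and the 22.8% that fell, and no test of a list was made. In the paragraphs on the largest changes and on the lists, a gene given as changed also passed without each of the 12 samples in turn unless the text says otherwise.

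**Figure D2:**
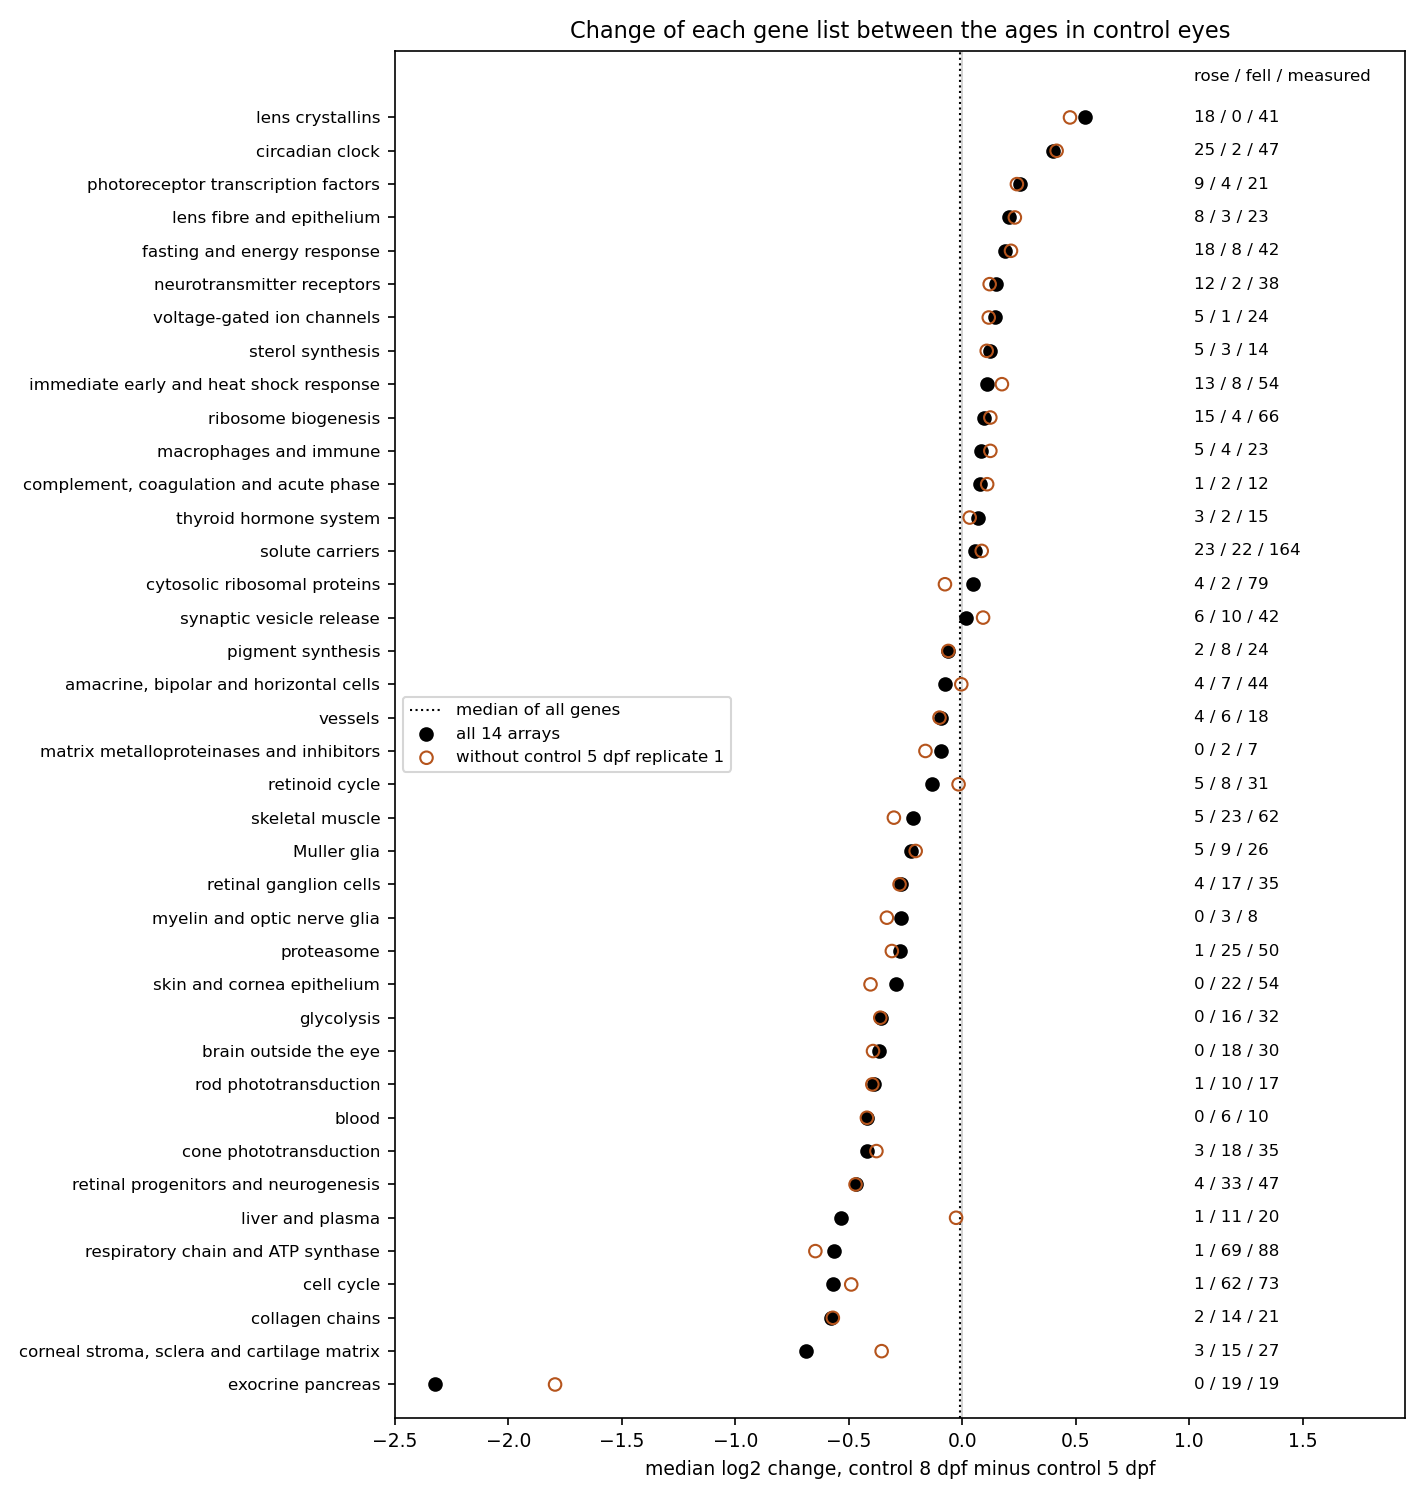
Median log2 change between control eyes of 8 and 5 dpf (x axis) for each of the 39 gene lists (y axis). Filled points are the medians with all 14 arrays, open points those without control 5 dpf replicate 1, and the numbers give the genes that rose, fell and were measured. Exocrine pancreas has the lowest median, -2.33, and lens crystallins the highest, 0.54.

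Among probes that were called higher, the largest changes in non-overlapping groups belonged to genes of different roles. For a gene with several such probes, the one with the largest change is given in this paragraph and the next. The clock gene nfil3-5, related to the transcriptional repressor NFIL3, had the largest increase, 2.80 ± 0.55, 6.95-fold higher, adjusted p = 0.00145. It had relative levels of -1.08, 0.57 and 0.91 in replicates 1 to 3 of 8 dpf, against -2.66, -1.95 and -1.24 in those of 5 dpf. The samples of each age spread widely, the groups did not overlap, and the call was lost without control 5 dpf replicate 1 (2.00, adjusted p = 0.140). With RNA samples as fixed effects, so that the 3 samples of a group weigh equally, limma gave 2.09 (adjusted p = 0.0631). The probe of defbl2, named as a beta-defensin, an antimicrobial peptide, followed with 2.54 ± 0.13, 5.81-fold higher, adjusted p = 6.21e-09. Its levels were 0.94, 1.20 and 1.59 in replicates 1 to 3 of 8 dpf, against -1.31, -1.25 and -1.27 in those of 5 dpf, so that the 5 dpf samples lay within a narrow range and every 8 dpf sample lay far above them. The ndrg1b probe rose by 2.51 ± 0.30, 5.71-fold higher, adjusted p = 2.55e-05 and the slc43a2b probe, for a predicted amino acid transporter, by 2.32 ± 0.12, 4.99-fold higher, adjusted p = 6.88e-09. The probe of cyp24a1, the enzyme that inactivates vitamin D, rose by 1.93 ± 0.20, adjusted p = 5.25e-06, and that of lpin1a, a lipin of lipid synthesis, by 1.91 ± 0.17, adjusted p = 1.53e-06. Probes for jac9, jac8 and jac6, which are named as jacalin family genes, showed changes of 2.26, 2.04 and 1.88, with a standard error up to 0.83. These 3 calls were lost without control 5 dpf replicate 1 and several other samples. With RNA samples as fixed effects the 3 probes passed in limma, at 3.33, 2.85 and 2.66, each larger than nfil3-5 in that fit. The order of the largest increases thus depends on how the samples are weighted. The probes of zgc:153846 (1.71 ± 0.14, adjusted p = 5.38e-07) and zgc:153704 (1.68 ± 0.20, adjusted p = 2.88e-05) also rose, and other called increases were not named.

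Among the largest decreases, outside the digestive enzymes described below, were the keratin krt1-19e (-3.94 ± 0.18, 15.3-fold lower, adjusted p = 2.49e-09), the cartilage collagens col2a1a (-3.34 ± 0.07, 10.2-fold lower, adjusted p = 9.77e-13) and col11a1a (-3.21 ± 0.10, 9.23-fold lower, adjusted p = 5.95e-11), and the beta-tubulin tubb5 (-3.22 ± 0.21, 9.29-fold lower, adjusted p = 6.73e-08). Averaged over the probes of a gene, the change was -3.10 for krt1-19e, -2.70 for col2a1a, -1.95 for col11a1a and -3.21 for tubb5. The col2a1a probe had levels of -1.79, -1.78 and -1.82 in replicates 1 to 3 of 8 dpf, against 1.58, 1.39 and 1.63 in those of 5 dpf and its samples lay close together within each age. Other large decreases were measured for zgc:153405 (-3.20 ± 0.20, adjusted p = 3.82e-08), zgc:110216 (-3.12 ± 0.18, adjusted p = 2.11e-08) and si:dkey-14d8.6 (-3.10 ± 0.42, adjusted p = 7.23e-05). The pmepa1 probe stood at -3.45 ± 0.59, adjusted p = 0.000542, with levels of -0.88, -1.30 and -1.42 in replicates 1 to 3 of 8 dpf, against 3.35, 0.58 and 0.74 in those of 5 dpf. Replicate 1 of 5 dpf was far above all other samples, and without it the change did not pass (-1.93, adjusted p = 0.0865).

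**Figure D3:**
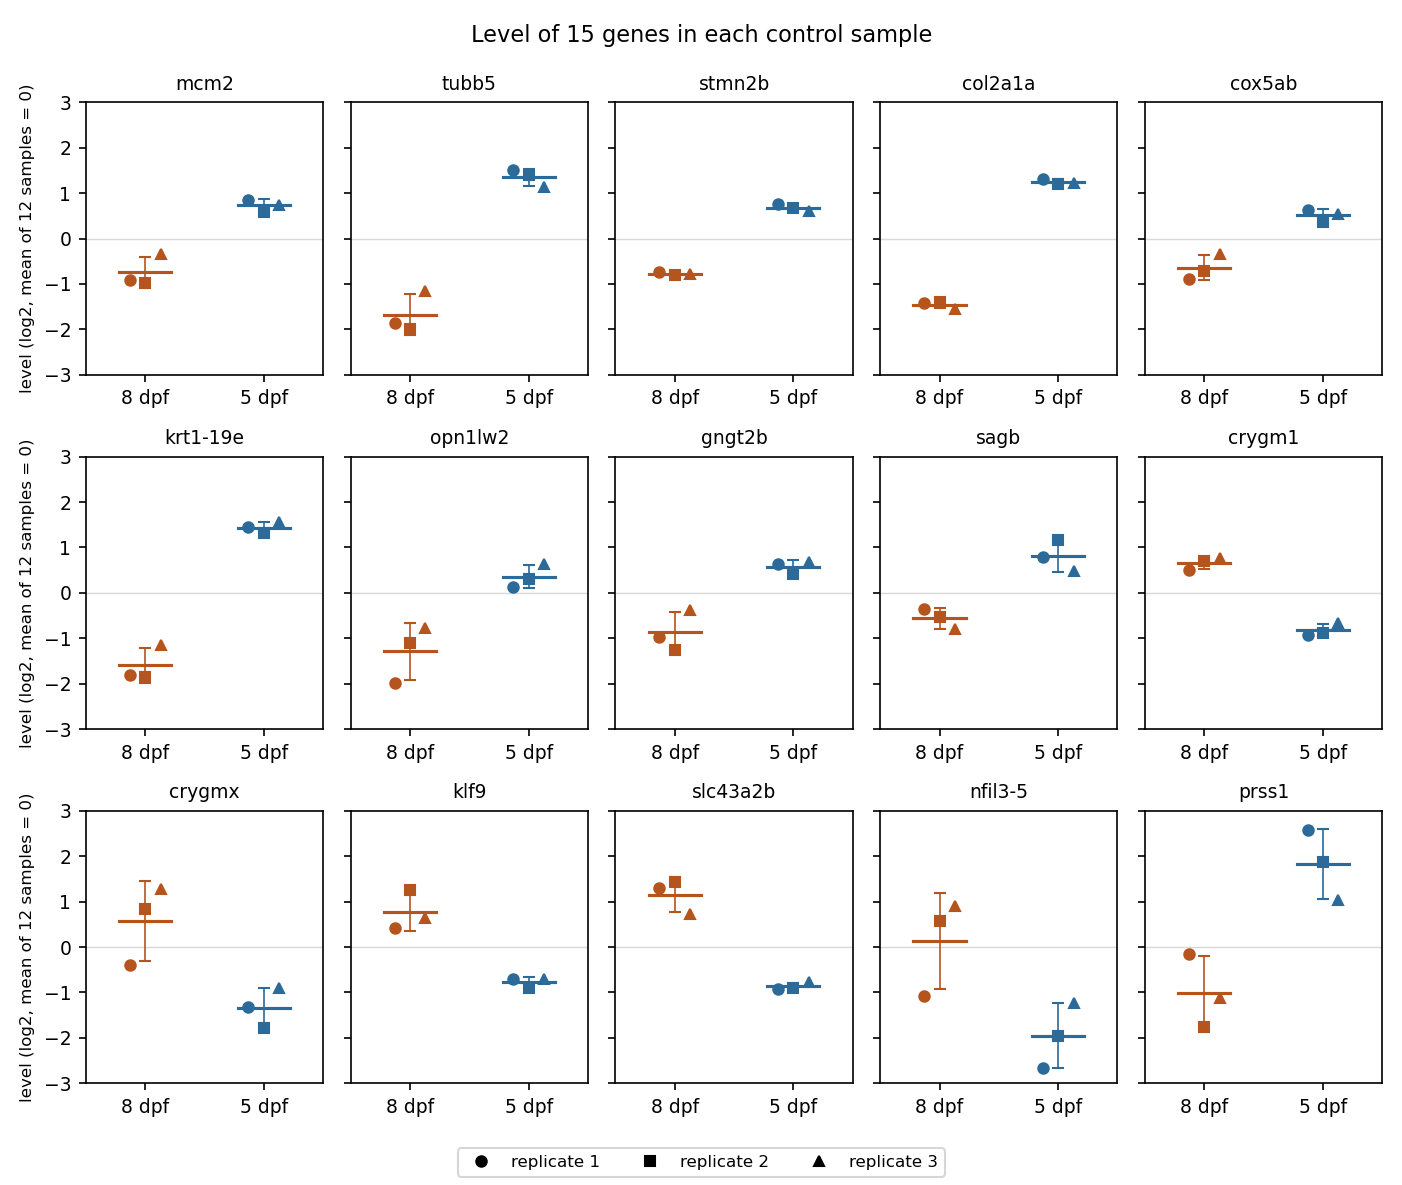
Relative log2 level of 15 genes in each control sample (y axis, mean of the 12 samples of the series at 0) at 8 dpf (orange) and 5 dpf (blue). Symbols are the 3 replicates, horizontal lines the group means and bars the SD. The groups do not overlap for any of the 15 genes, and nfil3-5 and crygmx, both at 8 dpf, show the widest spread within an age. Several of these genes were named by a rule that asked for groups without overlap, which 37.7% of all genes have.

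More cone genes fell than rose in the eyes of 8 dpf. Of 35 measured genes of cone phototransduction, 3 rose and 18 fell, with a median of -0.42. Without control 5 dpf replicate 1, 2 rose and 8 fell at a median of -0.38, and 7 of the decreases and 2 of the increases passed without each sample. The subunit of cone transducin gngt2b fell furthest (-1.45 ± 0.15, 2.73-fold lower, adjusted p = 4.76e-06), and its levels were -0.97, -1.26 and -0.38 in replicates 1 to 3 of 8 dpf, against 0.64, 0.41 and 0.68 in those of 5 dpf. Replicate 3 of 8 dpf lay nearest to the younger eyes, and the groups did not overlap.

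The cone opsins differed in how far they changed. The red opsin opn1lw2 fell by 1.45 ± 0.23 (2.73-fold, adjusted p = 0.000261), with levels of -1.99, -1.10 and -0.78 in replicates 1 to 3 of 8 dpf, against 0.13, 0.31 and 0.63 in those of 5 dpf. All 3 older samples lay below the younger ones, replicate 1 by the most. The other red opsin, opn1lw1, did not pass (-0.22 ± 0.14, adjusted p = 0.228), and its groups overlapped. Green opsin opn1mw1 stood at -1.07 ± 0.24, adjusted p = 0.00278, opn1mw2 at -0.60 ± 0.14, adjusted p = 0.00359 and opn1mw3, which did not pass, at -0.14 ± 0.06, adjusted p = 0.0703. The blue opsin opn1sw2 changed by -0.79 ± 0.13, adjusted p = 0.000292 and the ultraviolet opsin opn1sw1 by -0.63 ± 0.13, adjusted p = 0.00134. The calls for opn1mw1, opn1mw2, opn1sw2 and opn1sw1 were lost without control 5 dpf replicate 1, where their changes were -1.23, -0.54, -0.66 and -0.45 and their adjusted p lay between 0.0582 and 0.151. Without control 8 dpf replicate 1, the change of opn1mw1 was -0.69. Opsin genes of a tandem array are similar in sequence, and probes can bind the transcript of a neighbour.

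Downstream of the opsins, the opsin kinase grk7a (-1.29 ± 0.16, adjusted p = 2.42e-05), the catalytic phosphodiesterase subunit pde6c (-1.10 ± 0.17, adjusted p = 0.000160) and the phosducin pdca (-1.17 ± 0.15, adjusted p = 2.62e-05), which binds transducin subunits, fell as well. For pde6c the levels were 0.21, 0.07 and -0.46 in replicates 1 to 3 of 8 dpf, against 1.13, 0.95 and 0.60 in those of 5 dpf, and the groups lay apart by a small gap. The alpha subunit of cone transducin, gnat2, was at -0.71 ± 0.13, adjusted p = 0.000624 and did not pass without control 5 dpf replicate 1 (-0.61, adjusted p = 0.101). The 3 genes that rose were si:ch211-81a5.8 (1.79 ± 0.10, 3.46-fold higher, adjusted p = 1.46e-08), clul1, a clusterin relative of photoreceptors (1.04 ± 0.14, adjusted p = 4.01e-05), and gngt2a (0.42 ± 0.16, adjusted p = 0.0479), whose call was lost without any sample but control 5 dpf replicate 3 and which stood at 0.27 without control 5 dpf replicate 1. The levels of si:ch211-81a5.8 were 1.21, 1.17 and 0.91 in replicates 1 to 3 of 8 dpf, against -0.60, -0.52 and -0.67 in those of 5 dpf, with every older sample far above every younger one.

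Among rod genes, too, decreases outnumbered increases. Of 17 measured, 1 rose and 10 fell (median -0.39), and 7 of the decreases passed without each sample. The rod transducin subunit gngt1 (-1.57 ± 0.15, 2.96-fold lower, adjusted p = 2.74e-06) and the arrestins sagb (-1.47 ± 0.20, 2.78-fold lower, adjusted p = 4.56e-05) and saga (-1.06 ± 0.08, 2.09-fold lower, adjusted p = 1.91e-07), which shut off the light-activated opsin, fell furthest. Levels of sagb were -0.35, -0.52 and -0.81 in replicates 1 to 3 of 8 dpf, against 0.80, 1.17 and 0.47 in those of 5 dpf. Here replicate 3 was the lowest of the older samples, unlike in most lists that fell. The inhibitory phosphodiesterase subunit pde6g fell by 0.72 ± 0.10 (1.64-fold, adjusted p = 8.47e-05), and its levels were -0.56, -0.44 and -0.47 in replicates 1 to 3 of 8 dpf, against 0.17, 0.22 and 0.25 in those of 5 dpf. Samples of each age were close together. The alpha subunit gnat1 did not pass (-0.50 ± 0.23, adjusted p = 0.10), with replicate 3 of 8 dpf at 0.08 and the other older samples at -0.70 and -0.76. One gene rose, prph2a, a structural protein of the outer segment disc rim (0.53 ± 0.11, adjusted p = 0.00176), and its call was lost without control 5 dpf replicate 1 (0.52, adjusted p = 0.0726). The opsins rho and opn1mw4 had no named probe and are not analysed here.

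**Figure D4:**
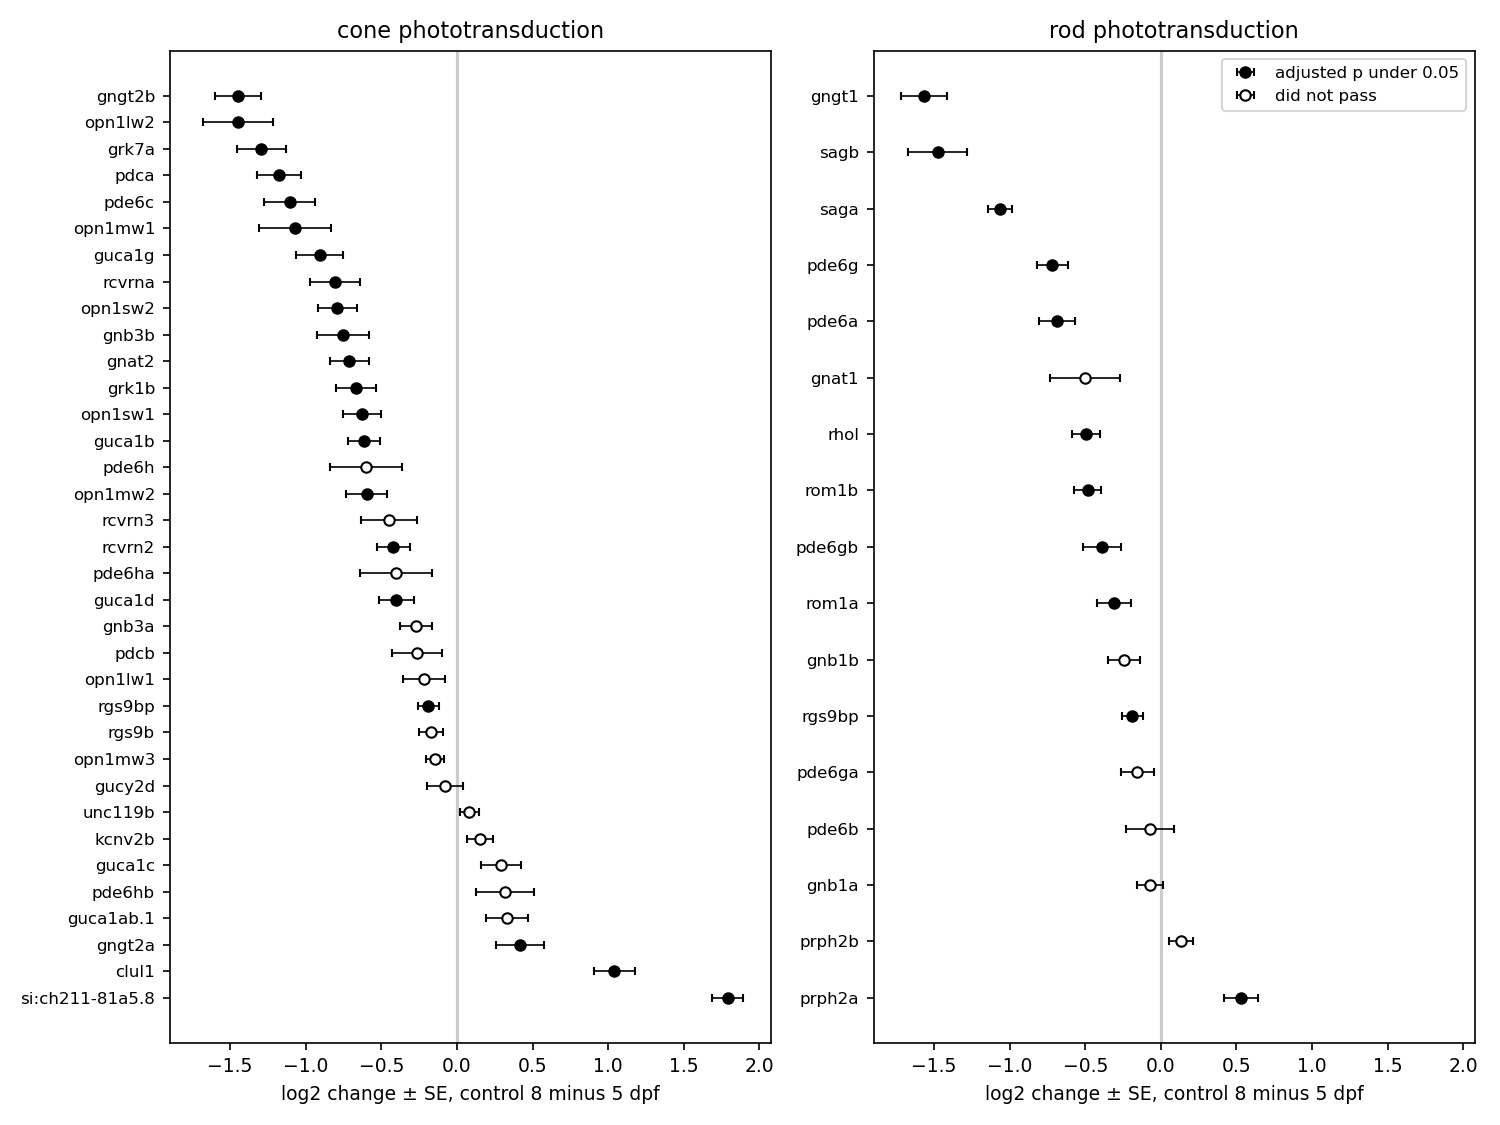
Log2 change ± SE between control eyes of 8 and 5 dpf (x axis) for each measured gene of cone (left) and rod phototransduction (right), ordered by the change. Filled points passed the adjusted p and open points did not. Most filled points lie below 0, and si:ch211-81a5.8 at 1.79 and clul1 at 1.04 are the highest among cone genes.

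The count for transcription factors of photoreceptors turned with a single sample, while their median hardly moved. Of 21 measured, 9 rose and 4 fell (median 0.25). Without control 5 dpf replicate 1, 1 rose and 2 fell, at a median of 0.24. Of the calls, 1 increase and 2 decreases passed without each sample. The increase of six7, needed for green cone opsin expression in zebrafish, was 0.73 ± 0.10, adjusted p = 5.08e-05, with levels of 0.34, 0.70 and 0.10 in replicates 1 to 3 of 8 dpf, against -0.25, -0.23 and -0.32 in those of 5 dpf. The groups did not overlap. A decrease was measured for nr2e3, a nuclear receptor of rod fate (-0.63 ± 0.07, adjusted p = 5.42e-06), and for prdm1a (-0.51 ± 0.06, adjusted p = 1.46e-05). The changes of neurod1 (1.02 ± 0.24, adjusted p = 0.00456), tbx2b (0.50 ± 0.12, adjusted p = 0.00450) and foxq2 (0.44 ± 0.11, adjusted p = 0.00559) passed with all samples but not without control 5 dpf replicate 1, where they were 0.50, 0.44 and 0.26. The changes of neurod1 and tbx2b also failed without control 8 dpf replicate 2.

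In the retinoid cycle, which rebuilds the light-absorbing chromophore, 5 of 31 genes (16.1%) rose and 8 (25.8%) fell, shares near those of all genes (median -0.13), and 1 and 3 of these passed without each sample. The photoreceptor retinol dehydrogenase rdh8a rose (0.82 ± 0.10, adjusted p = 2.49e-05), with levels of 0.35, 0.45 and 0.49 in replicates 1 to 3 of 8 dpf, against -0.26, -0.16 and -0.36 in those of 5 dpf. The retinaldehyde-binding protein rlbp1a (-0.91 ± 0.09, adjusted p = 4.71e-06) and the retinoic acid-binding protein crabp2a (-1.02 ± 0.12, adjusted p = 2.19e-05) fell. The isomerase of the pigment epithelium rpe65a was at -0.64 ± 0.15, adjusted p = 0.00328, and this call was lost without control 8 dpf replicate 1 and without control 5 dpf replicate 1 (-0.52, adjusted p = 0.0994).

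Genes of cell division were lower in the older eyes. Of 73 measured cell cycle genes, 62 fell and 1 rose, with a median of -0.57, and 39 of the decreases passed without each sample. The replicative helicase subunits mcm2 (-1.59 ± 0.11, 3.00-fold lower, adjusted p = 1.41e-07), mcm5 (-1.49 ± 0.10, adjusted p = 1.13e-07) and mcm6 (-1.28 ± 0.10, adjusted p = 2.43e-07) and the mitotic motor kif11 (-1.35 ± 0.09, adjusted p = 8.12e-08) fell furthest. The levels of mcm2 were -0.91, -0.97 and -0.35 in replicates 1 to 3 of 8 dpf, against 0.86, 0.58 and 0.75 in those of 5 dpf, and those of kif11 were -0.65, -0.82 and -0.54 in replicates 1 to 3 of 8 dpf, against 0.74, 0.48 and 0.65 in those of 5 dpf. In both, no sample of 8 dpf came near the range of 5 dpf. The sliding clamp pcna changed much less (-0.26 ± 0.07, adjusted p = 0.0113) and lost its call without control 5 dpf replicate 1 (-0.27, adjusted p = 0.156) and 3 other samples. The 1 gene that rose, melk, stood at 0.27 ± 0.06, adjusted p = 0.00293 and did not pass without control 8 dpf replicate 2 or without control 5 dpf replicate 1 (0.18, adjusted p = 0.240).

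Progenitor and neurogenesis genes followed the same direction, with 33 of 47 lower and 4 higher (median -0.47). Of the decreases, 16 passed without each sample. The tubulin tubb5 fell by 3.21 ± 0.19 (9.29-fold, adjusted p = 1.88e-08). Its levels were -1.87, -2.0 and -1.16 in replicates 1 to 3 of 8 dpf, against 1.50, 1.41 and 1.14 in those of 5 dpf, a difference much wider than the spread within either age. The microtubule destabilizer stmn1a (-2.07 ± 0.11, 4.20-fold lower, adjusted p = 5.82e-09), the beta-thymosin tmsb (-1.80 ± 0.14, adjusted p = 4.33e-07) and the neurogenic factor sox11b (-1.60 ± 0.11, adjusted p = 5.76e-08) also fell. The eye field genes pax6b (0.47 ± 0.10, adjusted p = 0.00171) and pax6a (0.34 ± 0.07, adjusted p = 0.00171) rose, and neither passed without control 5 dpf replicate 1.

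Among ganglion cell markers, the largest decreases included proteins of growing axons. Of 35 genes 17 fell and 4 rose (median -0.27), and 7 decreases passed without each sample. The growth cone proteins stmn2b (-1.58 ± 0.09, 2.99-fold lower, adjusted p = 1.29e-08) and gap43 (-1.06 ± 0.11, 2.09-fold lower, adjusted p = 6.91e-06) and the tubulin tubb2 (-1.06 ± 0.13, adjusted p = 1.87e-05) fell. The levels of stmn2b were -0.75, -0.80 and -0.77 in replicates 1 to 3 of 8 dpf, against 0.75, 0.66 and 0.61 in those of 5 dpf, and those of gap43 were -0.48, -0.55 and -0.50 in replicates 1 to 3 of 8 dpf, against 0.45, 0.48 and 0.44 in those of 5 dpf. Both genes had nearly equal levels in the 3 samples of an age. The ganglion cell marker rbpms2b stood at 0.52 ± 0.09, adjusted p = 0.000446 and did not pass without control 5 dpf replicate 1 (0.48, adjusted p = 0.0508). Markers of brain outside the eye, which a dissection could carry along with the optic nerve, also fell in 18 of 30 genes (median -0.37), 4 of them without each sample, for example neurod6a (-0.82 ± 0.11, adjusted p = 4.96e-05). Their part in the ganglion cell and progenitor changes was not tested.

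Marker genes of Müller glia, the radial glia of the retina, changed in both directions, as all genes did. Of 26 marker genes 5 (19.2%) rose and 9 (34.6%) fell (median -0.23), against 14.3% and 22.8% of all genes. This is without the skin gene icn (-0.90), which was taken out of the list after its value was seen. The intermediate filament gene vim (1.14 ± 0.15, 2.21-fold higher, adjusted p = 3.86e-05) and the apolipoprotein apoeb (0.98 ± 0.10, adjusted p = 4.27e-06) rose, and the brain-type fatty acid-binding proteins fabp7a (-1.53 ± 0.10, 2.89-fold lower, adjusted p = 7.87e-08) and fabp7b (-0.84 ± 0.10, adjusted p = 2.14e-05) fell. Levels of vim were 0.14, 0.38 and 0.97 in replicates 1 to 3 of 8 dpf, against -0.75, -0.70 and -0.51 in those of 5 dpf, whereas levels of fabp7a were -1.0, -0.93 and -0.56 in replicates 1 to 3 of 8 dpf, against 0.77, 0.77 and 0.64 in those of 5 dpf. In neither gene did the ages overlap. The glial filament gfap did not pass (0.04 ± 0.10, adjusted p = 0.752). The glutamine synthetase glula was at 0.50 ± 0.10, adjusted p = 0.00134 and sox9b at -0.61 ± 0.09, adjusted p = 0.000171, and both calls were lost without control 5 dpf replicate 1.

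Few calls for other retinal neurons and synaptic genes passed without each sample. Amacrine, bipolar and horizontal cell markers had 4 increases and 7 decreases among 44 genes (median -0.07), and 1 of these passed without each sample. This was trpm1a, the cation channel of ON bipolar cells that is also found in pigment cells (0.77 ± 0.12, adjusted p = 0.000134). The calcium-binding protein pvalb5 was at -1.51 ± 0.24, adjusted p = 0.000241 and lost its call without control 5 dpf replicate 1 (-1.27, adjusted p = 0.0605). Of 38 neurotransmitter receptor genes 12 (31.6%) rose and 2 (5.26%) fell (median 0.15), but 0 of the increases passed without each sample. The NMDA receptor subunits grin1b (0.70 ± 0.16, adjusted p = 0.00403) and grin1a (0.56 ± 0.17, adjusted p = 0.0170) are examples, and both failed without control 5 dpf replicate 1 (0.0660 and 0.0978, adjusted p), control 8 dpf replicate 1 and TBBPA 5 dpf replicate 1. The lowest changes were 0.40 for grin1b, without control 8 dpf replicate 1, and 0.35 for grin1a, without control 8 dpf replicate 2. The GABA receptor subunit gabra6a fell (-0.76 ± 0.09, adjusted p = 2.30e-05). Voltage-gated ion channel genes had 5 increases (20.8%) and 1 decrease (4.17%) in 24 genes. Synaptic vesicle genes had 6 increases (14.3%) and 10 decreases (23.8%) in 42, near the shares of all genes. None of the ion channel calls and 1 of the vesicle calls, syn1 (-0.63 ± 0.09, adjusted p = 0.000116), passed without each sample.

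Crystallin genes that passed the test all rose. Of 41 measured crystallin genes, which encode the refractive proteins of the lens, 18 rose and 0 fell, with a median of 0.54 and a positive change in 39. Without control 5 dpf replicate 1 the median was 0.47 and 8 rose, and 7 passed without each sample. Among them were crygmx (2.04 ± 0.32, 4.13-fold higher, adjusted p = 0.000203), crygm1 (1.52 ± 0.12, 2.87-fold higher, adjusted p = 2.79e-07) and crygmxl2 (1.26 ± 0.18, adjusted p = 9.62e-05), all of the gamma-M family. The levels of crygm1 were 0.51, 0.69 and 0.77 in replicates 1 to 3 of 8 dpf, against -0.94, -0.89 and -0.66 in those of 5 dpf, tight within each age. Those of crygmx were -0.40, 0.83 and 1.29 in replicates 1 to 3 of 8 dpf, against -1.32, -1.79 and -0.91 in those of 5 dpf, with replicate 1 the lowest of the older samples. The alpha-crystallin cryaa, by contrast, did not pass (0.07 ± 0.18, adjusted p = 0.775), and its groups overlapped. The list means differed in the same way between samples, at -0.16, 0.20 and 0.44 at 8 dpf and -0.35, -0.55 and -0.16 at 5 dpf. Replicate 1 of 8 dpf was thus level with replicate 3 of 5 dpf. Gamma-crystallin genes form a large family of near-identical copies, so that a probe may report several of them.

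Genes of lens fibres other than crystallins rose in 8 of 23 cases and fell in 3 (median 0.21), with 4 and 1 of these calls standing without each sample. The lens membrane protein genes lim2.5 (1.76 ± 0.26, 3.39-fold higher, adjusted p = 0.000103) and lim2.4 (1.25 ± 0.14, adjusted p = 8.08e-06) rose. Levels of lim2.5 were -0.10, 0.41 and 1.12 in replicates 1 to 3 of 8 dpf, against -1.08, -1.41 and -0.63 in those of 5 dpf. The aquaporin of lens fibres mipa was at -0.51 ± 0.10, adjusted p = 0.00117 and did not pass without control 5 dpf replicate 1 (-0.42, adjusted p = 0.0527). The transcription factor sox1a fell (-0.67 ± 0.08, adjusted p = 1.73e-05).

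Pigment genes had 2 increases (8.33%) and 8 decreases (33.3%) in 24 genes (median -0.06), of which 1 and 2 passed without each sample. That increase was trpm1a (0.77), the same gene as given above among the amacrine, bipolar and horizontal cell markers. The purine nucleoside phosphorylase pnp4a of iridophores, the reflecting pigment cells, fell by 1.35 ± 0.12 (2.54-fold, adjusted p = 1.31e-06), and the melanin enzyme tyrp1b fell by 1.30 ± 0.19 (2.47-fold, adjusted p = 0.000128). Levels of tyrp1b were -0.99, -0.59 and -0.24 in replicates 1 to 3 of 8 dpf, against 0.72, 0.40 and 0.99 in those of 5 dpf. The pteridine enzyme gch2 (-1.21 ± 0.25, adjusted p = 0.00165) and the melanin enzyme dct (-0.47 ± 0.16, adjusted p = 0.0329) did not pass without control 5 dpf replicate 1 (0.129 and 0.153, adjusted p), and dct also failed without 5 other samples. The melanin enzyme gene tyr had no named probe and is not analysed here.

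Clock genes that changed were mostly higher in the older eyes. Of 47 measured, 25 rose and 2 fell (median 0.40). Without control 5 dpf replicate 1 the median was 0.42 and 9 rose, and 7 passed without each sample. Among these were the cryptochrome cry2b (1.31 ± 0.23, 2.48-fold higher, adjusted p = 0.000463) and nfil3-6 (1.11 ± 0.16, 2.16-fold higher, adjusted p = 0.000112). The levels of nfil3-6 were 0.98, 1.38 and 0.49 in replicates 1 to 3 of 8 dpf, against -0.01, -0.05 and -0.65 in those of 5 dpf. The nuclear receptor rorcb, of the activating arm, was at 1.43 ± 0.24, adjusted p = 0.000329 and failed without control 5 dpf replicate 1 (1.11, adjusted p = 0.0744). The repressors nr1d1 (0.17 ± 0.44, adjusted p = 0.793) and per1b (-0.11 ± 0.30, adjusted p = 0.805) did not pass. Other repressors rose, and per2 (0.58 ± 0.11, adjusted p = 0.000665), cry1a (0.61 ± 0.08, adjusted p = 3.23e-05) and nr1d2a (0.83 ± 0.17, adjusted p = 0.00120), which failed without control 5 dpf replicate 1, are named here after their values were seen. The levels of nr1d1 were 1.44, 1.52 and 0.75 in replicates 1 to 3 of 8 dpf, against 1.55, 0.74 and -0.45 in those of 5 dpf, and the groups overlapped. Sampling took place within some hours, and the hour of each sample is not given in the sources used here.

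In the thyroid hormone system, 3 of 15 genes rose and 2 fell (median 0.07). The largest change was that of klf9, a transcription factor induced by thyroid hormone and by glucocorticoids, which rose by 1.66 ± 0.16 (3.16-fold, adjusted p = 1.94e-06). Its levels were 0.43, 1.26 and 0.64 in replicates 1 to 3 of 8 dpf, against -0.70, -0.89 and -0.70 in those of 5 dpf, and no sample of one age came near the other. The hormone transporter slco1c1 rose (0.49 ± 0.09, adjusted p = 0.000917). The receptors thraa (0.07 ± 0.11, adjusted p = 0.642) and thrb (-0.03 ± 0.13, adjusted p = 0.886) did not pass.

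Genes that respond to fasting and low energy changed in both directions, with 18 of 42 (42.9%) higher and 8 (19.0%) lower (median 0.19). Of these, 8 and 1 stood without each sample. Genes that rose were lpin1a (1.65 ± 0.16, 3.13-fold higher, adjusted p = 2.43e-06), the insulin-like growth factor-binding protein igfbp1b (1.50 ± 0.14, 2.82-fold higher, adjusted p = 2.38e-06), the kinase mknk2b (1.21 ± 0.12, adjusted p = 2.43e-06) and the sestrin sesn1 (1.16 ± 0.13, adjusted p = 1.09e-05), an inhibitor of growth signalling. Levels of igfbp1b were 0.39, 0.68 and 1.03 in replicates 1 to 3 of 8 dpf, against -0.65, -1.06 and -0.76 in those of 5 dpf, and the groups lay more than 1 log2 unit apart. The beta-oxidation enzyme hadhb fell (-1.18 ± 0.12, adjusted p = 4.31e-06). In sterol synthesis 5 of 14 genes rose and 3 fell. The methylsterol oxidase msmo1 (0.37 ± 0.06, adjusted p = 0.000176) and the sterol sensor insig1 (0.39 ± 0.09, adjusted p = 0.00333) rose, whereas hmgcs1, an early enzyme of the pathway, fell (-0.77 ± 0.10, adjusted p = 2.45e-05).

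Stress and immediate early genes had 13 increases and 8 decreases among 54 (median 0.11). The phosphatase dusp2 (0.91 ± 0.09, adjusted p = 2.53e-06) and gadd45ba (0.86 ± 0.12, adjusted p = 6.25e-05) rose. The decreases were led by serpinh1b, the chaperone of collagen (-1.71 ± 0.20, 3.28-fold lower, adjusted p = 1.21e-05), with levels of -0.49, -1.09 and -1.18 in replicates 1 to 3 of 8 dpf, against 0.64, 0.60 and 1.05 in those of 5 dpf, and included the chaperones hspa4b (-0.85 ± 0.13, adjusted p = 0.000175) and hsp90b1 (-0.64 ± 0.07, adjusted p = 9.47e-06). Macrophage and immune genes changed in 5 and 4 of 23 cases, and complement genes in 1 and 2 of 12. The transcription factor cebpd rose (0.90 ± 0.12, adjusted p = 4.20e-05). Its relative cebpb was at 0.94 ± 0.27, adjusted p = 0.0132 and failed without control 8 dpf replicate 1 and without TBBPA 5 dpf replicate 1, where it was 0.46, against 1.55 without control 5 dpf replicate 1. Of 7 metalloproteinase genes and inhibitors 2 fell, and neither passed without control 5 dpf replicate 1.

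Transcripts of energy metabolism were lower in the older eyes. Of 88 genes of the respiratory chain and ATP synthase, 69 fell and 1 rose (median -0.56). Without control 5 dpf replicate 1 the median was -0.65 and 37 fell, and 35 passed without each sample. The cytochrome oxidase subunits cox5ab (-1.28 ± 0.14, 2.42-fold lower, adjusted p = 7.11e-06) and cox7a2a (-1.26 ± 0.12, adjusted p = 2.74e-06) and the ATP synthase subunit atp5mc1 (-1.18 ± 0.10, adjusted p = 6.11e-07) fell furthest. Levels of cox5ab were -0.88, -0.71 and -0.34 in replicates 1 to 3 of 8 dpf, against 0.63, 0.36 and 0.54 in those of 5 dpf. Replicate 3 was the nearest of the older samples to the younger ones, as it was in the list means of -0.40, -0.31 and -0.05 at 8 dpf and 0.29, 0.15 and 0.30 at 5 dpf. In glycolysis 16 of 32 genes fell and 0 rose (median -0.36), 8 of them without each sample, among them the enolase eno1b (-1.24 ± 0.13, 2.37-fold lower, adjusted p = 4.44e-06) and the kinase pgk1 (-0.77 ± 0.12, adjusted p = 0.000243).

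Proteasome genes fell in 25 of 50 cases (median -0.28), and 5 passed without each sample, including psma2a (-0.76 ± 0.12, adjusted p = 0.000217) and psmb5 (-0.65 ± 0.09, adjusted p = 3.88e-05). The count was 6 without control 5 dpf replicate 1. Cytosolic ribosomal protein genes changed little, with 4 increases and 2 decreases in 79, a median of 0.05 that turned to -0.08 without control 5 dpf replicate 1, and 0 calls standing without each sample. In ribosome biogenesis 15 of 66 rose and 4 fell, with polr1a, the large subunit of RNA polymerase I, at 0.84 ± 0.11, adjusted p = 3.74e-05 and the processing factor rcl1 at 0.80 ± 0.09, adjusted p = 1.18e-05. Of 164 solute carriers, a large family of transporters, 23 (14.0%) rose and 22 (13.4%) fell, against 14.3% and 22.8% of all genes. The predicted amino acid transporter slc43a2b rose most (2.15 ± 0.12, 4.46-fold higher, adjusted p = 1.29e-08), with levels of 1.31, 1.44 and 0.72 in replicates 1 to 3 of 8 dpf, against -0.92, -0.91 and -0.78 in those of 5 dpf, and the amino acid transporter chain slc3a2b rose too (0.81 ± 0.10, adjusted p = 1.54e-05). The mitochondrial phosphate carrier slc25a3a (-1.15 ± 0.16, adjusted p = 5.69e-05) and the adenine nucleotide carrier slc25a4 (-0.80 ± 0.13, adjusted p = 0.000328) fell.

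Several matrix genes of cartilage were among the largest and tightest decreases. Of 21 collagen chains 14 fell and 2 rose (median -0.58), with 10 decreases standing without each sample. The cartilage collagens col2a1a (-2.70 ± 0.09, 6.49-fold lower, adjusted p = 5.05e-11), col9a3 (-2.70 ± 0.14, 6.50-fold lower, adjusted p = 3.79e-09) and col11a1a (-1.95 ± 0.13, 3.88-fold lower, adjusted p = 5.48e-08) and the fibrillar collagen col1a1b (-2.10 ± 0.14, 4.29-fold lower, adjusted p = 6.53e-08) fell. The levels of col9a3 were -1.39, -1.52 and -1.32 in replicates 1 to 3 of 8 dpf, against 1.29, 0.91 and 1.28 in those of 5 dpf. Of 27 other matrix genes 15 fell and 3 rose. Their median was -0.69, and -0.35 without control 5 dpf replicate 1, while 11 decreases passed without each sample. The cartilage matrix proteins matn1 (-2.07 ± 0.12, 4.20-fold lower, adjusted p = 1.29e-08), matn4 (-1.71 ± 0.17, 3.28-fold lower, adjusted p = 3.25e-06) and ucmab (-1.58 ± 0.17, 3.00-fold lower, adjusted p = 5.93e-06) led the decreases. Levels of matn1 were -1.02, -1.45 and -1.02 in replicates 1 to 3 of 8 dpf, against 0.94, 0.75 and 0.78 in those of 5 dpf. The matricellular protein ccn2a rose (0.78 ± 0.13, adjusted p = 0.000430). The corneal keratan sulfate proteoglycan kera was at 0.77 ± 0.16, adjusted p = 0.00166 and failed without control 5 dpf replicate 1 (0.72, adjusted p = 0.121).

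Several keratins and other genes of surface epithelium were lower in the older eyes. Of 54 skin and cornea genes 22 fell and 0 rose (median -0.29), and 10 passed without each sample. The keratins krt1-19e (-3.10 ± 0.14, 8.60-fold lower, adjusted p = 2.33e-09), cyt1 (-1.49 ± 0.21, 2.81-fold lower, adjusted p = 7.09e-05), krt5 (-1.47 ± 0.13, 2.78-fold lower, adjusted p = 7.93e-07), krt4 (-1.29 ± 0.14, 2.45-fold lower, adjusted p = 9.81e-06) and krt17 (-0.97 ± 0.12, adjusted p = 2.40e-05) fell. Levels of krt1-19e were -1.80, -1.85 and -1.15 in replicates 1 to 3 of 8 dpf, against 1.44, 1.31 and 1.55 in those of 5 dpf. The cornea is covered by epithelium of its own, and skin carried along at dissection would hold the same keratins, so that the share of each was not tested.

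Of the 39 lists, the largest shift was in digestive enzymes of the pancreas, an organ outside the eye. All 19 measured genes of the exocrine pancreas fell, with a median of -2.33, -1.79 without control 5 dpf replicate 1, and 15 standing without each sample. The probe of the elastase cela1.6 was at -4.45 ± 0.54, 21.8-fold lower, adjusted p = 3.00e-05 and that of the amylase amy2a at -3.97 ± 0.47, 15.7-fold lower, adjusted p = 2.14e-05. Decreases were also measured by probes for the proteases prss59.1 (-4.24 ± 0.43, adjusted p = 5.05e-06), prss1 (-4.18 ± 0.49, adjusted p = 2.15e-05), ela2l (-4.08 ± 0.46, adjusted p = 1.46e-05), ela3l (-4.08 ± 0.38, adjusted p = 2.70e-06) and ela2 (-3.69 ± 0.46, adjusted p = 3.46e-05). These probes changed less without control 5 dpf replicate 1, by -3.01 (amy2a) to -3.67 (prss59.1), with cela1.6 at -3.51. With RNA samples as fixed effects, cela1.6 was at -3.64 and prss1 at -3.43. Averaged over its probes, the gene prss1 changed by -3.57. Its levels were -0.15, -1.75 and -1.13 in replicates 1 to 3 of 8 dpf, against 2.58, 1.88 and 1.04 in those of 5 dpf. Samples of each age spread over more than 1 log2 unit, and list means were -0.32, -0.85 and -0.68 at 8 dpf and 1.77, 0.92 and 0.59 at 5 dpf. Trypsin and elastase genes have near-identical copies that probes may not separate. The liver list showed another pattern. Here 11 of 20 fell and 1 rose (median -0.54), but the median was -0.03 and 1 fell without control 5 dpf replicate 1. The liver fatty acid-binding protein fabp10a (-2.50 ± 0.42, 5.66-fold lower, adjusted p = 0.000328) had levels of -0.68, -0.50 and -0.84 in replicates 1 to 3 of 8 dpf, against 2.56, 0.79 and 0.43 in those of 5 dpf, while apoa2 (-2.03 ± 0.47, adjusted p = 0.00345) had -0.39, -0.66 and -0.29 in replicates 1 to 3 of 8 dpf, against 2.35, 0.03 and 0.14 in those of 5 dpf. For apoa2, replicate 1 of 5 dpf alone stood high, and its change was -0.19, adjusted p = 0.340 without it. The call was also lost without control 8 dpf replicate 2.

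**Figure D5:**
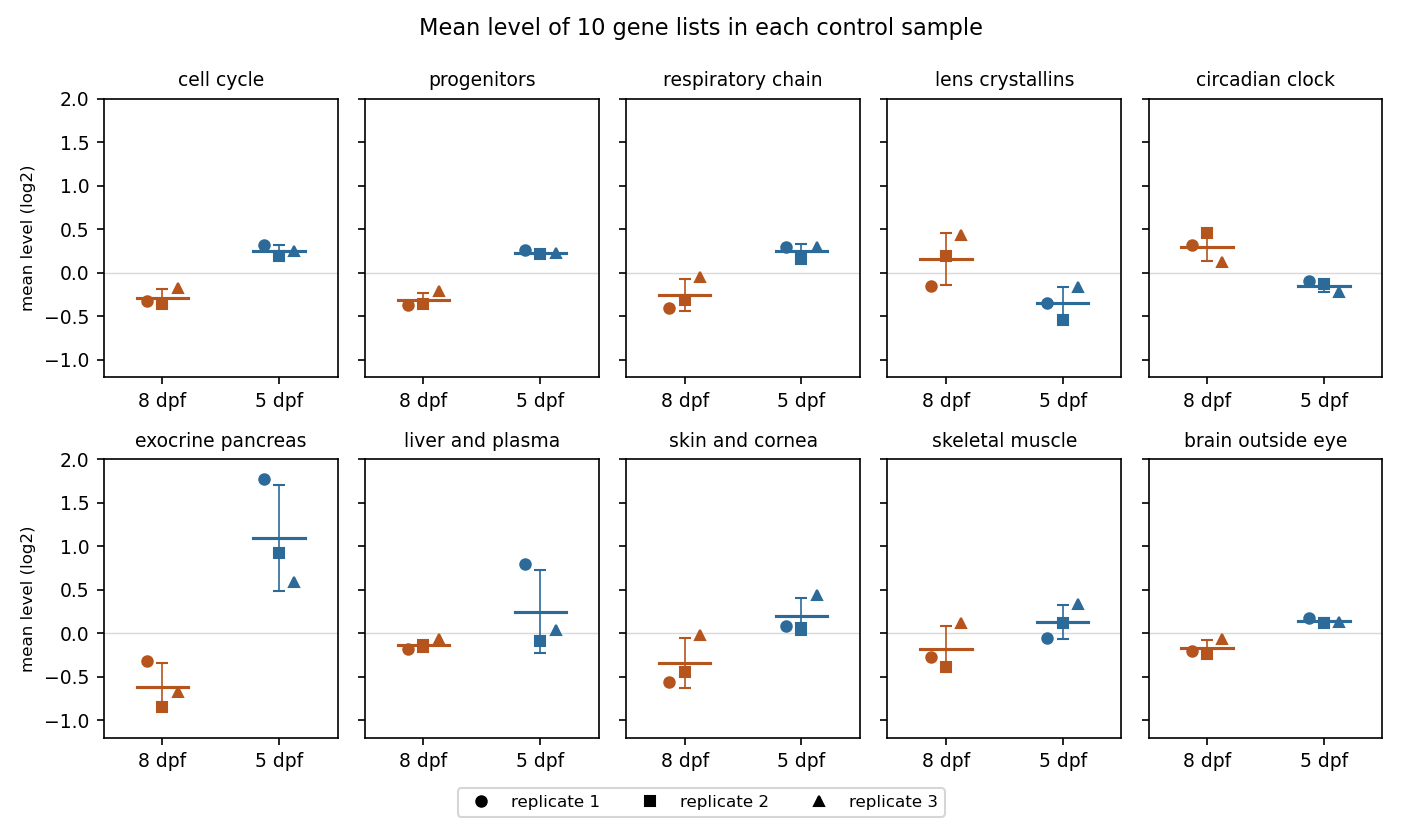
Mean relative log2 level of 10 gene lists in each control sample (y axis, mean over the genes of a list) at 8 dpf (orange) and 5 dpf (blue). Symbols are the 3 replicates, lines the group means and bars the SD. For exocrine pancreas and for liver and plasma, control 5 dpf replicate 1 is the highest sample, at 1.77 and 0.80.

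Blood, muscle, vessels and glia of the optic nerve completed the tissues that an eyeball can carry. The embryonic globins hbae1.1 (-2.27 ± 0.23, 4.82-fold lower, adjusted p = 4.24e-06), hbae3 (-2.17 ± 0.24, 4.49-fold lower, adjusted p = 9.33e-06) and hbbe2 (-1.66 ± 0.15, 3.16-fold lower, adjusted p = 1.30e-06) fell, as did 6 of 10 blood genes in all. Levels of hbae1.1 were -1.40, -1.65 and -0.67 in replicates 1 to 3 of 8 dpf, against 0.93, 0.36 and 0.59 in those of 5 dpf. Globin genes are near-identical within their clusters, and probes can share their signal. In skeletal muscle, which the eye muscles contain, 23 of 62 genes fell and 5 rose (median -0.22), but 2 of these calls passed without each sample, among them pvalb1 (-2.03 ± 0.33, 4.09-fold lower, adjusted p = 0.000255). The muscle list means were -0.27, -0.38 and 0.12 at 8 dpf and -0.06, 0.12 and 0.33 at 5 dpf and overlapped. Vessel genes had 4 increases and 6 decreases in 18, with aplnrb (-0.77 ± 0.10, adjusted p = 2.45e-05) and cldn5b (-0.64 ± 0.08, adjusted p = 2.78e-05) among those that fell. Of 8 genes of myelinating glia 3 fell, and olig2, a factor of oligodendrocyte precursors and of some neural progenitors, did so by 1.21 ± 0.07 (2.31-fold, adjusted p = 1.54e-08). Its levels were -0.54, -0.62 and -0.47 in replicates 1 to 3 of 8 dpf, against 0.61, 0.47 and 0.60 in those of 5 dpf. The part that pancreas, liver, skin, muscle, blood and brain transcripts had in the changes of the other lists was not tested.

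The change between the ages was also compared between TBBPA and control larvae. In TBBPA eyes, 4217 genes (47.1%) passed between 8 and 5 dpf, 1762 higher and 2455 lower, against 3312 in control eyes. The difference between these changes passed for 6 genes (0.0671%), and 5 probes were called for it, with 2072 probes at an unadjusted p under 0.05. The count of 6 genes became 0 without control 8 dpf replicate 2 or 3, control 5 dpf replicate 1, TBBPA 8 dpf replicate 3 or TBBPA 5 dpf replicate 1, and 95 without control 5 dpf replicate 3. The keratin krt17 fell by more in TBBPA eyes, -1.79, than in control eyes, -0.97. The rod subunit pde6g was nearly level in TBBPA eyes (-0.06) and -0.72 in control eyes. The median change of the rod list was -0.08 in TBBPA eyes and -0.39 in control eyes, that of the pancreas list -1.26 and -2.33, that of the skin and cornea list -0.72 and -0.29, and that of the cell cycle list -0.55 and -0.57. These differences of list medians were not tested.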

How the data were processed

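RNA from pooled eyes was amplified, labelled with Cy5 or Cy3 and hybridised in pairs to Agilent zebrafish arrays. The authors deposited log2 ratios per probe and array, after leaving out spots that were near background on all arrays, a normal-exponential background correction and loess normalization within each array, and they fitted limma version 3.34.4. No log base or direction is written in the table. They were read as base 2 and Cy5 over Cy3 because the methods and the dye assignments give these, and turning round any single array lowered the residual sum of squares for 0 of the 14 arrays. After turning an array round, this sum was 1.02 to 1.88 times the original, so the narrowest margin was small. The sign of all arrays together cannot be tested this way.

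The ratios were fitted as deposited with limma 3.58.1 in R 4.3.3, with a coefficient per group and the RNA sample as a random effect, whose estimated share was 0. Residual degrees of freedom were 11. Tests were two-sided, with Benjamini-Hochberg adjustment over 17950 probes or 8948 genes. Probes were called at an adjusted p under 0.05 and an absolute log2 change over 0.75, as in the methods. Precision is limited by how many arrays and samples there are. The fits were also run on simulated data in which probes varied independently and few of them changed. In the real data many genes passed and lists moved together with single samples, so the simulation is no check of the calls. Gene symbols came from the platform annotation, updated for 3015 probes through a RefSeq table, and 3815 probes were not named.

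The members and the gene lists were chosen with earlier results of these data known, and 2 lists matched by name pattern and the Müller glia list were corrected after their results were seen. This took htra1b (0.49) and htra2-10 (-0.01) out of the neurotransmitter receptors, rps6ka3a (0.11), rps6kal (0.67) and rps6kb1b (0.34) out of the ribosomal proteins and the skin gene icn (-0.90) out of the Müller glia markers. Genes were named by a rule: the 15 largest non-overlapping changes per direction among called probes, up to 4 genes per direction in each list, a set of eye, clock and tissue marker genes, and genes that changed differently in TBBPA larvae. Among the called probes, a gene was represented by its probe with the largest change. Alternatives were a dye effect, other treatments of the RNA sample, only the arrays linking the ages, array U alone, centring, scaling, robust variance estimates, a replicate block, another fold threshold, 1 probe per gene, and leaving out each sample.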

Additional observations from a re-analysis of the deposited data

Results flagged for a closer look

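The difference between the age change in TBBPA eyes and in control eyes passed the adjusted p in limma for 6 genes. It was -0.91 for atp1a1a.2, an alpha subunit of the sodium pump (TBBPA -1.34, control -0.43, adjusted p = 0.00440), -0.63 for the cytochrome oxidase subunit cox6a2 (TBBPA -0.73, control -0.10, adjusted p = 0.00440) and -0.58 for cyp2y3 (TBBPA -0.83, control -0.24, adjusted p = 0.00440). The keratin krt17 differed by -0.82 (TBBPA -1.79, control -0.97, adjusted p = 0.0155), the rod phosphodiesterase subunit pde6g by 0.66 (TBBPA -0.06, control -0.72, adjusted p = 0.0219) and si:ch211-103n10.5 by -0.57 (TBBPA -0.62, control -0.05, adjusted p = 0.0430). With a dye effect in the model, krt17 (adjusted p = 0.143) and si:ch211-103n10.5 (adjusted p = 0.166) no longer passed. None of the 6 genes passed for the difference without control 8 dpf replicate 2 or 3, control 5 dpf replicate 1, TBBPA 8 dpf replicate 3 or TBBPA 5 dpf replicate 1, with the share of the RNA sample at 0.5, or with only the 4 arrays linking the ages. The control changes of cox6a2 and si:ch211-103n10.5 did not pass on their own. Those of atp1a1a.2 and cyp2y3 passed with all samples but not without control 8 dpf replicate 1, control 5 dpf replicate 1 or TBBPA 5 dpf replicate 1, and that of atp1a1a.2 also not without control 8 dpf replicate 2.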

How the results depend on the processing

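Of the 282 named genes and probes, 271 passed the adjusted p in the control comparison, and 134 of these passed without each of the 12 samples. Of the 271, 82 lost the call with RNA samples as fixed effects and 51 with the share of the RNA sample at 0.5. Those lost with fixed effects included slco1c1 (0.40, adjusted p = 0.0665) and hspa4b (-0.80, adjusted p = 0.0519), which had passed without each sample. The 1221 called probes were 1975 on array U alone, with no test, 590 at a log2 threshold of 1, 326 with arrays scaled to a common spread and 70 with only the 4 linking arrays, where calls with the adjusted p alone were also 70 and genes 191. Probes past the adjusted p (5792) and genes (3312) were 3279 and 2072 with the share of the RNA sample set to 0.5, 1753 and 1391 with RNA samples as fixed effects, and 1122 and 703 with scaling. Scaling shrinks the age change itself, because the linking arrays have the wider spread. Leaving out 1 sample gave 1394 to 6914 probes and 1019 to 3816 genes. Probes called for the difference of the age change (5) were 3 with a dye effect, 0 with the share at 0.5, 39 with fixed samples, 0 with the linking arrays and 0 to 81 without 1 sample. Genes past its adjusted p (6) were 66 with fixed samples, 3 with scaling and 0 to 95 without 1 sample.

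Replicate numbers were not taken as pairs, since the labels name no shared plate or day and the correlation of same-numbered deviations was -0.03 for replicate 1, against 0.26 and 0.42 for replicates 2 and 3. As a hint the other way, 2 of 3 samples correlated best with their own number. With the replicate block, 3348 probes and 2126 genes passed, 1015 probes were called, 44 probes were called and 48 genes passed for the difference, and per1b stood at 0.37.

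Values that changed sign included those of per1b (0.14 with a dye effect, 0.22 with the share at 0.5, 0.44 with fixed samples, -0.29 to 0.33 without 1 sample), si:ch211-103n10.5 (0.003, 0.024 with the share at 0.5 and fixed samples, 0.18 scaled, -0.13 to 0.068), cryaa (-0.24 with the linking arrays, -0.10 to 0.31), thrb (0.059, -0.20 to 0.10) and nr1d1 (-0.14, -0.24 to 1.20), and with scaling opn1lw1 (0.036), cox6a2 (0.12), atp1a1a.2 (0.001) and cyp2y3 (0.001). Without 1 sample, gfap ranged from -0.042 to 0.11, thraa from -0.012 to 0.18, rbp2b from -0.92 to 0.11 and the median of cytosolic ribosomal protein genes from -0.076 to 0.155. The synaptic vesicle median (0.017) was -0.049 without control 8 dpf replicate 1, -0.036 with scaling and -0.003 on array U. The macrophage median was -0.034 with the linking arrays and -0.048 on array U. The cause of these shifts was not tested.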

Other observations

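Genes with symbols that differ only in a final a or b, many of them duplicates from the genome duplication of bony fishes, could be compared as pairs. These values were chosen after they were seen. Of 733 such pairs with both members measured, 132 changed in the same direction between control eyes of 8 and 5 dpf, 24 in opposite directions, 328 in 1 member only and 249 in neither. Over all genes, 14.3% rose and 22.8% fell, so pairs of unrelated genes would also hold calls in the same and in opposite directions. Whether the counts differ from those of unrelated pairs was not tested. Among the opposite pairs, igfbp1b rose by 1.50 and igfbp1a fell by 0.38, gngt2a of cone transducin rose by 0.42 and gngt2b fell by 1.45, and tagln3a rose by 0.34 and tagln3b fell by 1.41. The ubiquitin ligase gene mylipa rose by 1.27 and mylipb fell by 0.30, and the transcription factor cebpb rose by 0.94 and cebpa fell by 0.51. These were the 5 pairs furthest apart. Lower in that order, the sodium pump subunit atp1b1a rose by 0.45 while atp1b1b fell by 0.53. The tight junction gene cldn5a rose by 0.20 and cldn5b fell by 0.64. Of these genes, igfbp1a, mylipb and cebpa lost the call without control 8 dpf replicate 2 and without control 5 dpf replicate 1, both atp1b1 genes without TBBPA 5 dpf replicate 1, cebpb without control 8 dpf replicate 1 and without TBBPA 5 dpf replicate 1, cldn5a without 3 samples (control 8 dpf replicates 1 and 2 and control 5 dpf replicate 1), tagln3a without 5, control 5 dpf replicate 1 among them, and gngt2a without 11 of the 12. No test was made of the difference within a pair, and some pairs may share a name without being duplicates.

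Of the 746 genes behind called probes, 309 were in one of the 39 lists and 437 were in none, and 169 called probes had no gene name. Of all 8948 named genes, 1421 were in a list. The lists were chosen with earlier results of these data known, so this split says nothing about the lists themselves.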
